A study of Mus musculus with 6 samples.

Results

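Purinergic and adenosine signaling was followed through 10 genes in ribosome-bound RNA of mouse hippocampal astrocytes. The genes were taken by symbol from a list of purine receptors and enzymes drawn up with earlier results of these data known, and all 10 were found among the 22086 genes of the files. They are P2rx4, P2rx7, P2ry1 and P2ry14, receptors for nucleotides and nucleotide sugars, the adenosine receptors Adora1 and Adora2b, the surface enzymes Entpd1, Entpd2 and Nt5e, and the intracellular enzyme Adk. The study asked how loss of Connexin 43 (Cx43), the main gap junction protein of astrocytes, changes what these cells translate. Polysomes were pulled down by translating ribosome affinity purification (TRAP) from whole hippocampi of 6 weeks-old mice and their RNA was sequenced.

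All mice carried floxed Cx43 (Cx43 fl/fl) and one copy of the Aldh1l1:L10a-eGFP transgene, in which the Aldh1l1 promoter of astrocytes drives a ribosomal protein fused to eGFP. The 3 control libraries (Cx43FL, littermates) had no Cre, and the 3 Cx43KO libraries also carried hGFAP-Cre, a recombinase under the human GFAP promoter. TRAP therefore samples cells in which the Aldh1l1 promoter is active, and Cre acts wherever the GFAP promoter is or was active. How many animals made up a library is not given in the sources used here.

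ATP released by cells acts on P2X receptors, which are ion channels, and on P2Y receptors, which are coupled to G proteins. Enzymes on the cell surface strip its phosphates in turn: Entpd1 and Entpd2 act on ATP and ADP, and Nt5e turns the resulting AMP into adenosine. Adenosine acts on receptors such as the inhibitory A1 receptor and the stimulatory A2B receptor, and is taken up and phosphorylated back to AMP by Adk, an enzyme that in the adult brain is found mainly in astrocytes and keeps adenosine low.

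Between 14787303 and 34733473 counts per library lay on genes. The 14 astrocyte markers other than Gja1 were counted in every library and summed to 29804 to 33712 CPM (counts scaled to a common total in each library) in Cx43FL and to 15376, 29230 and 42118 in Cx43KO replicates 1, 2 and 3. Cx43KO replicate 1 stood apart, at 123 on a first principal component (41.0% of the variance) on which the other libraries lay from -50.7 to -0.42. Values without it are given for some of the results below. Gja1, which encodes Cx43, was no lower in the libraries labelled Cx43KO, at 87.2 to 98.4 CPM against 82.3 to 92.0 in Cx43FL. The work that the paper cites for these mice exchanged Cx43-coding DNA for a lacZ reporter. The counts cover the whole transcript and do not tell its parts apart. They did not show the deletion, and the reason was not tested. The labels were used as given.

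Adk was the most abundant of the 10 and P2ry14 was not counted at all. For levels to be compared between genes, CPM were divided by the length of the counted transcript. In Cx43FL, Adk stood at 162.9 ± 15.6 CPM per kb (SD, n = 3 here and for all values of this kind), at the 96.7th percentile of the 13545 genes tested. Adora1 came next at 41.5 ± 16.0, at the 85.0th percentile. The ectonucleotidases followed, Entpd2 at 9.27 ± 3.98 and Entpd1 at 7.44 ± 2.36 CPM per kb, near the middle of all genes at the 55.0th and 49.6th percentiles. Adora2b stood at 3.91 ± 1.38. The receptors for ATP and ADP were rare, P2rx4 at 1.44 ± 0.13, P2rx7 at 1.20 ± 0.80 and P2ry1 at 0.56 ± 0.55 CPM per kb. Nt5e was the least abundant gene with counts, at 0.40 ± 0.35, at the 4.85th percentile. RNA of other cell types was counted too. In Cx43FL the 16 neuronal markers summed to 2438 to 3257 CPM, beside 29804 to 33712 for the 14 astrocyte markers. Snap25 of neurons had 1175, 1441 and 1675 CPM in Cx43FL, above Slc1a3 of astrocytes at 841, 1099 and 1068. The part of other cell types in these levels was not tested.

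**Figure D1:**
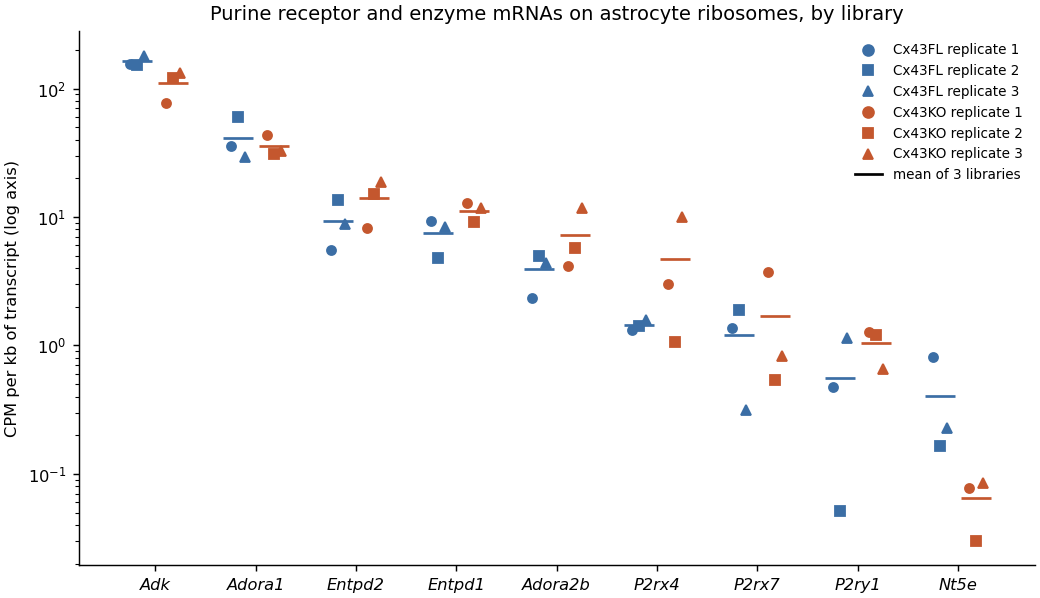
Level of each gene in CPM per kb of transcript (log axis) in the 3 Cx43FL and 3 Cx43KO libraries, 1 point per library, with genes in the order of their Cx43FL mean and horizontal lines for the mean. Adk and Adora1 lie above the other genes in all libraries, and P2ry14, with no counts, is not drawn.

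Not every step of this order exceeded the spread between libraries. In Cx43FL the ranges of Adk and Adora1, of Adora1 and Entpd2, and of Adora2b and P2rx4 did not overlap. The ranges of Entpd2 and Entpd1, of Entpd1 and Adora2b, of P2rx4 and P2rx7, of P2rx7 and P2ry1, and of P2ry1 and Nt5e did. Cx43KO means came in the same order. Adk alone made up 63.8% to 77.0% of the summed level (CPM per kb) of the 10 genes in Cx43FL and 50.03% to 65.3% in Cx43KO, and Adora1 12.4% to 24.97% and 14.8% to 28.3%.

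Adk, Adora1 and P2ry14 mark both ends of this order, and the 250 bases before their starts (RefSeq, GRCm38.p6, shown 5′ to 3′ on the strand of the gene) are printed for that reason. Capitals mark each CG dinucleotide.
Adk, chr14:21052324-21052573, plus strand: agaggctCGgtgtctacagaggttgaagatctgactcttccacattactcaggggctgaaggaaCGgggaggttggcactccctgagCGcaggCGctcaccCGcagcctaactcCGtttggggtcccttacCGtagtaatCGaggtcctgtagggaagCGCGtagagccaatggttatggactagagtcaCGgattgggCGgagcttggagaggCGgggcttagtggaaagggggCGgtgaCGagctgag
Adora1, chr1:134235458-134235707, minus strand: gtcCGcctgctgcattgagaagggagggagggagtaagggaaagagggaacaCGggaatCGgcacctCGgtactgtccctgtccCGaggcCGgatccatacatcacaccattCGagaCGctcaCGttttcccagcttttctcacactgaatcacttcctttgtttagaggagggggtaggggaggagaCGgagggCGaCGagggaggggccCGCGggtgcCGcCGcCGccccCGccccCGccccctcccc
P2ry14, chr3:59130763-59131012, minus strand: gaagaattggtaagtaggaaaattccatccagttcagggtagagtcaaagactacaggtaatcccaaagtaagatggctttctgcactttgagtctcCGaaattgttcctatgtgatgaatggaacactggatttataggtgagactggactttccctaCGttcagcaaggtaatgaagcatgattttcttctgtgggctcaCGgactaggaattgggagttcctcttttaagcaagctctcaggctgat

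The abundant Adk and Adora1 had 15 and 19 CG dinucleotides in this window and P2ry14 had 3, against a median of 6 over 32851 promoters of the same length. Over the 10 genes this number did not follow the order of levels: the rare Nt5e and P2ry1 had 21 and 20, and Adora2b had the most, 22. The GC box (letters GGGCGG, either strand, each holding a CG) was found in 2 copies before Adk, in 3 before Adora1 and in none before P2ry14, and in 4 before Nt5e and 6 before Adora2b. Among the 10 genes 7 had it, beside 32.7% of all promoters. The TATA letters (TATAAA, either strand) were found before P2ry14 alone, and in 12.4% of all promoters. The letters TTCNNNGAA, bound by STAT factors, were present before none of the 10 on either strand and in 7.02% of all promoters. The starts used lay 0 bases from that of the counted transcript for Adk and Adora2b, 10 for P2ry1, 60 for Adora1 and 138 for P2ry14. RefSeq gave 4 promoters for P2ry14 and 2 each for Adk and Adora1, and only the nearest was used. P2ry14 had 0 counts, so its transcript was not chosen by counts. For Nt5e the distance was 412 bases, and its window lies after the start of the counted transcript. The Nt5e numbers are therefore not those of the sequence before that transcript. No measurement here bears on these promoters directly.

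No purine gene of the 10 passed the test between genotypes. By the quasi-likelihood test of edgeR, adjusted by Benjamini-Hochberg over 13545 genes, 9 of the 10 could be tested and 0 were called in either direction, beside 0.00738% of all genes called higher in Cx43KO and 0% lower. A call needed an adjusted p below 0.05 and a mean normalized count above 50. At an unadjusted p below 0.05 the count was also 0, beside 5.66% of all genes higher and 2.67% lower. DESeq2 with its normal prior called 0 of the 9, beside 0.671% of genes higher and 0.101% lower, and gave 1 an unadjusted p below 0.05 (P2rx4, higher in Cx43KO), beside 6.55% of genes higher and 3.09% lower. The estimates were positive for 6 of the 9 and negative for 3, beside 54.4% and 45.6% of all genes, and their median was 0.59 on the log2 scale against 0.07 over all genes. These fits had wide intervals, the narrowest from -1.21 to 0.08 for Adk and the widest from -5.57 to 0.34 for Nt5e, and differences of several-fold in the rare genes could not be told from 0 with these libraries.

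**Figure D2:**
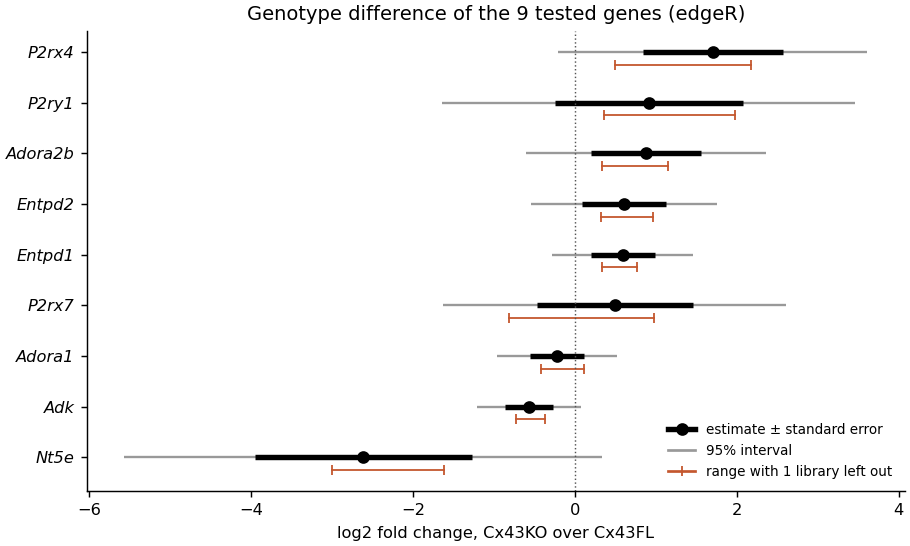
Log2 fold change (Cx43KO over Cx43FL) of the 9 tested genes from edgeR, with the SE as a thick bar, the 95% interval as a grey line and the range with 1 library left out in orange. Each interval includes 0, and those of Adk, Adora1 and Entpd1 are the narrowest.

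Adk, which removes adenosine inside the astrocyte, had 277.8, 271.0 and 322.0 CPM in Cx43FL replicates 1, 2 and 3 and 136.6, 214.1 and 237.2 in Cx43KO. All 3 Cx43KO values were lower than the lowest Cx43FL value. Adk differed by -0.57 on the log2 scale (SE 0.29, 95% interval -1.21 to 0.08), and it did not pass the test (edgeR adjusted p = 0.609, exact 2-sided permutation test p = 0.1, the smallest p that 3 against 3 libraries can give). Of the 9 tested genes, 2 had every Cx43KO library below every Cx43FL library, Adk and Nt5e, beside 7.45% of all genes, and 0 had every Cx43KO library above, beside 8.08%. Without Cx43KO replicate 1, the lowest in Adk, the log2 difference was -0.37. Adk lies at chr14:21052574-21448569 on the plus strand (GRCm38), and its only counted transcript has 11 exons and 1782 bases.

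The summed astrocyte markers were also lowest in Cx43KO replicate 1. In bulk RNA, fewer cells of a type and less RNA per cell cannot be told apart. Per 1000 CPM of these markers, Adk stood at 9.16, 9.09 and 9.55 CPM in Cx43FL and at 8.88, 7.32 and 5.63 in Cx43KO. The Cx43KO values were still all below, by a smaller margin, with Cx43KO replicate 3 now lowest. Some of the markers differed as well: Glul had 8960, 8936 and 9217 CPM in Cx43FL and 2906, 6182 and 7418 in Cx43KO. Of the 14 markers, 2 had every Cx43KO library below every Cx43FL library, beside 7.45% of all genes. None, 0 of the 14, had every one above, beside 8.08%. Scaling the fit to these markers, an alternative added after the data had been seen, gave a log2 difference of -0.35 (SE 0.37, edgeR adjusted p = 0.762) and moved the median of all genes from 0.07 to 0.41. Relative to that median, which takes all genes and not the astrocyte markers as the reference, Adk lay at -0.76. Per 1000 CPM of astrocyte markers Nt5e was the other gene with all Cx43KO libraries below (3.58% of all genes), and Adora2b the only one of the 9 with all above (7.57%).

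**Figure D3:**
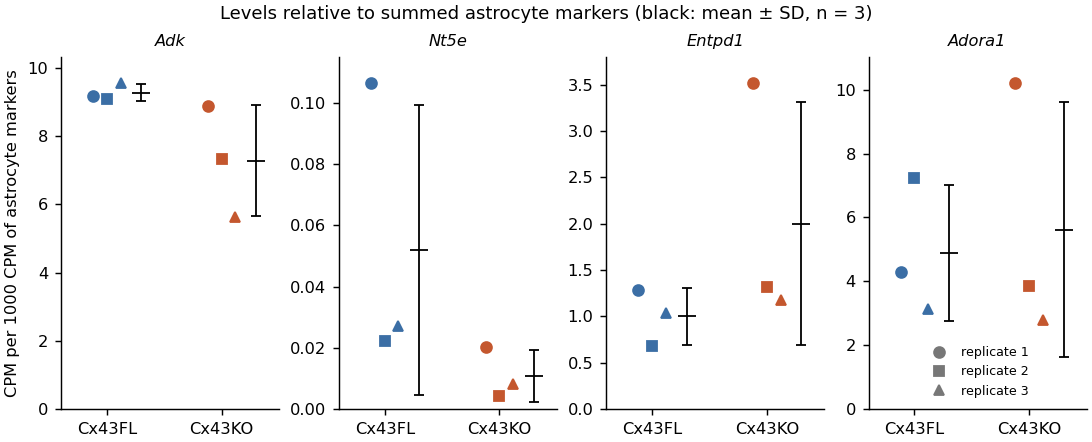
CPM of Adk, Nt5e, Entpd1 and Adora1 per 1000 CPM of 14 summed astrocyte markers, 1 symbol per library with the mean and SD (n = 3) in black. Adk and Nt5e lie lower in each Cx43KO library than in any Cx43FL library, and Entpd1 and Adora1 overlap.

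Nt5e, the enzyme that makes adenosine from AMP, had 49, 10 and 14 counts in Cx43FL and 5, 3 and 11 in Cx43KO, or 3.23, 0.66 and 0.91 CPM against 0.31, 0.12 and 0.34. The groups did not overlap, but the Cx43FL mean rested on replicate 1. On the log2 scale the difference was -2.61 (SE 1.34, 95% interval -5.57 to 0.34, edgeR adjusted p = 0.609, exact 2-sided permutation test p = 0.1), and -1.61 without Cx43FL replicate 1. DESeq2 with its prior shrank it to -0.88 (adjusted p = 0.497). Nt5e lies at chr9:88327197-88372092, plus strand, and its counted transcript has 9 exons.

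Entpd1, which degrades ATP and ADP to AMP and in the brain is best known from microglia and vessels, had 39.1, 20.2 and 35.0 CPM in Cx43FL and 54.1, 38.3 and 49.5 in Cx43KO. Cx43KO replicate 2 lay just under Cx43FL replicate 1, so the groups overlapped. Entpd1 differed by 0.59 on the log2 scale (SE 0.40, 95% interval -0.28 to 1.46, edgeR adjusted p = 0.665). Entpd2, which acts mainly on ATP and leaves ADP, had 10.7, 26.1 and 17.0 CPM in Cx43FL and 16.0, 29.5 and 36.3 in Cx43KO. Its groups overlapped too, and its log2 difference was 0.60 (SE 0.52, 95% interval -0.55 to 1.75, edgeR adjusted p = 0.739). Of the 1935 bases of its counted transcript, 612 lie in exons of the neighbouring gene Npdc1 on the same strand, so the assignment of reads between the 2 is uncertain. Entpd1 lies at chr19:40612366-40741602 and Entpd2 at chr2:25395874-25401321, both on the plus strand.

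The balance of the surface enzymes followed Nt5e. The summed level of Entpd1 and Entpd2 per level of Nt5e (both CPM per kb) was 18.3, 109.9 and 74.8 in Cx43FL and 271, 805 and 358 in Cx43KO. All Cx43KO ratios were higher, by 3.01 on the log2 scale (exact 2-sided permutation test p = 0.1), and they rest on 3 to 11 counts of Nt5e. The ratio of Adk to Nt5e was 193, 916 and 792 in Cx43FL and 986, 3981 and 1566 in Cx43KO (log2 difference 1.82, exact 2-sided permutation test p = 0.1). Entpd2 per Entpd1 was 0.60, 2.82 and 1.06 in Cx43FL and 0.65, 1.68 and 1.60 in Cx43KO, with full overlap (exact 2-sided permutation test p = 1). Adk per Adora1 was 4.34, 2.55 and 6.20 in Cx43FL and 1.77, 3.86 and 4.09 in Cx43KO, with overlap (log2 difference -0.43, exact 2-sided permutation test p = 0.4). With 5 ratios compared, among them that of the adenosine receptors given with Adora2b, the smallest p possible stays above 0.05 before any adjustment.

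Among adenosine receptors, Adora1, the inhibitory A1 receptor, had 130.1, 215.8 and 105.6 CPM in Cx43FL and 156.9, 112.7 and 117.9 in Cx43KO. The Cx43KO libraries lay within the Cx43FL range. The log2 difference was -0.22 (SE 0.33, 95% interval -0.96 to 0.52, edgeR adjusted p = 0.858), and 0.12 without Cx43FL replicate 2. Scaled to the astrocyte markers it was 0.20, under the all-gene median of 0.41. The 16 neuronal markers, of a cell type that also expresses Adora1, summed to 2438, 3138 and 3257 CPM in Cx43FL and to 8864, 3509 and 4833 in Cx43KO, highest in Cx43KO replicate 1 as was Adora1 among Cx43KO libraries, and their part was not tested. Adora1 lies at chr1:134199223-134235431 on the minus strand, and its 3 transcripts share most reads.

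Adora2b, the stimulatory A2B receptor, had 4.35, 9.22 and 8.08 CPM in Cx43FL and 7.64, 10.5 and 21.6 in Cx43KO. The groups overlapped at Cx43KO replicate 1, and replicate 3 was highest. Its log2 difference was 0.88 (SE 0.67, 95% interval -0.61 to 2.37, edgeR adjusted p = 0.706), and 0.33 without Cx43KO replicate 3. Per 1000 CPM of astrocyte markers Adora2b stood at 0.14, 0.31 and 0.24 in Cx43FL and 0.50, 0.36 and 0.51 in Cx43KO, which did not overlap. The level of Adora1 per level of Adora2b was 15.2, 11.9 and 6.65 in Cx43FL and 10.5, 5.45 and 2.78 in Cx43KO (log2 difference -0.98, exact 2-sided permutation test p = 0.2). Adora2b lies at chr11:62248984-62266453 on the plus strand, in 2 exons.

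P2rx4, an ATP-gated cation channel known from activated microglia, had 3.56, 3.85 and 4.23 CPM in Cx43FL and 8.07, 2.85 and 27.0 in Cx43KO. Cx43KO replicate 3 was far higher than the rest, with 875 counts, and replicate 2 was the lowest library of all. P2rx4 differed by 1.70 on the log2 scale (SE 0.87, 95% interval -0.20 to 3.61, edgeR adjusted p = 0.609), and 0.49 without Cx43KO replicate 3. P2rx7, the large-pore ATP channel that opens at high ATP, had 6.78, 9.35 and 1.56 CPM in Cx43FL and 18.3, 2.65 and 4.08 in Cx43KO. Here Cx43KO replicate 1 was highest and Cx43FL replicate 3 lowest. The log2 difference was 0.49 (SE 0.96, 95% interval -1.62 to 2.61, edgeR adjusted p = 0.894), and -0.82 without Cx43KO replicate 1. The genes are neighbours on chromosome 5, P2rx7 at chr5:122643911-122691432 and P2rx4 at chr5:122707544-122729738, both on the plus strand, yet their highest libraries differed.

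Markers of microglia were higher in Cx43KO beside these receptors. The 18 markers summed to 62.1, 64.3 and 35.4 CPM in Cx43FL and to 189, 140.2 and 277 in Cx43KO, and 7 of the 16 that could be tested had every Cx43KO library above every Cx43FL library, beside 8.08% of all genes. The highest, 277, was in Cx43KO replicate 3, the library with the most P2rx4, in which the cathepsin gene Ctss stood at 72.3 CPM against 2.34 to 10.7 in Cx43FL. The defining markers Tmem119 and Cx3cr1 were low in all libraries, Tmem119 at 0, 1.09 and 1.64 CPM in Cx43KO against 0.85 to 1.39 in Cx43FL and Cx3cr1 at 3.10 to 6.73 against 2.90 to 6.32. The 14 endothelial and mural markers, with Kcnj8 at 0, summed to 41.0 to 41.7 CPM in Cx43FL and to 110.4, 39.6 and 76.8 in Cx43KO, and the 14 oligodendrocyte markers to 830 to 1281 and to 2932, 1304 and 982. Cx43KO replicate 1, the highest in both, was also the highest in P2rx7 and Entpd1. The part of these cell types in the values of P2rx4, P2rx7 and Entpd1 was not tested.

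P2ry1, the ADP receptor linked to calcium signals in astrocytes, had 28, 3 and 68 counts in Cx43FL and 80, 117 and 82 in Cx43KO, or 1.84, 0.20 and 4.43 CPM against 4.97, 4.70 and 2.53. The groups overlapped and Cx43FL replicate 2 was nearly empty. P2ry1 differed by 0.91 on the log2 scale (SE 1.16, 95% interval -1.64 to 3.46, edgeR adjusted p = 0.826), 0.36 without Cx43FL replicate 2 and 1.98 without Cx43FL replicate 3. Of the 3886 bases of P2ry1, 992 overlap the gene Gm37035 on the opposite strand, and the strand setting of the counting is not given in the sources used here, so reads of the 2 genes cannot be told apart. P2ry1 lies at chr3:61002795-61008982 on the plus strand. P2ry14, the receptor for UDP-glucose, lies at chr3:59113855-59153618 on the minus strand and had 0 counts in all 6 libraries, which allows a level of up to 0.0926 to 0.199 CPM (3 counts per library, counting error only).

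**Figure D4:**
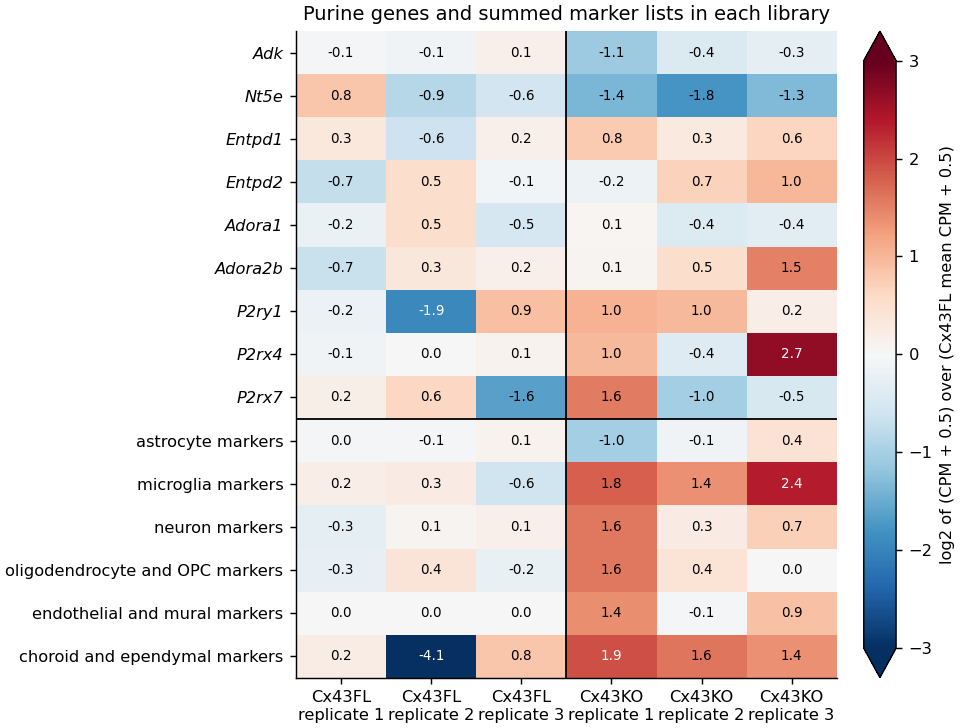
Log2 of CPM + 0.5 over the Cx43FL mean + 0.5 for each tested gene (rows) in the 6 libraries (columns), with the summed cell type markers in the lower rows. Cx43KO replicates 1 and 3 hold the highest value of 6 of the 9 genes, and the share over all genes is not given. The microglia row, the neuron row and the choroid and ependymal row are higher in each Cx43KO library than in any Cx43FL library.

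The highest value of a gene was in Cx43KO replicate 1 for 3 genes (P2rx7, P2ry1 and Entpd1) and in Cx43KO replicate 3 for 3 (P2rx4, Adora2b and Entpd2). Cx43KO replicate 1 also stood apart over all genes, on the first principal component. The share of all genes highest in these libraries is not given here. The ratio of the highest to the lowest library ran from 2.04 for Adora1 and 2.36 for Adk to 24.96 for P2ry1 and 26.8 for Nt5e, so the rarest genes varied most.

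Among 9794 genes with a mean of at least 10 CPM, the pattern over the 6 libraries most like that of Adk was that of Bhlhe40, with a root-mean-square difference of 0.070 in centred log2 CPM beside the 0.39 by which Adk itself varied. Vps26c (0.081) and Rbl2 (0.086) came next. For Adora1, which varied by 0.35, the nearest were Abraxas2 (0.091), Slx1b (0.093) and Nelfcd (0.094). For Entpd2, which varied by 0.58, they were Morc2a (0.159), Gpr155 (0.168) and Lrrc42 (0.185). These are descriptions over 6 libraries, which differ in depth, the deepest being Cx43KO replicates 2 and 3.

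The 10 genes belong to a wider list of 47 purine genes in 6 groups, of which 30 could be tested and 0 were called by edgeR. Nt5e, P2ry6, P2ry13, Adora2a and Slc28a3 had mean normalized counts below 50 in both genotypes and could not be called. Of the 21 tested genes outside the 10, 13 had positive and 8 negative log2 differences. P2X channels were 3 tested of 7, all with positive estimates, and P2Y receptors 4 tested of 8, with 3 positive. Adenosine receptors were 3 tested of 4 (2 positive), surface enzymes 6 of 10 (5 positive), intracellular enzymes 7 of 8 (2 positive, among them Ampd2, an AMP deaminase) and transporters and channels 7 of 10 (4 positive). The group medians ran from -0.43 for intracellular enzymes to 1.57 for P2Y receptors on the log2 scale, beside 0.07 over all genes. None of these counts was tested as a set. Without Cx43KO replicate 1 the medians of these groups, over the genes tested in that fit, were -0.07 and 1.19. The P2Y median rested on 4 genes. In Cx43FL P2ry6 had 5, 0 and 9 counts (SE 1.49) and P2ry13 had 1, 1 and 13 (SE 1.56). The log2 difference of P2ry12 was -0.20. In all libraries 5 genes were at 0 counts, P2ry14, P2ry4, P2ry10, P2rx2 and Entpd8.

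**Figure D5:**
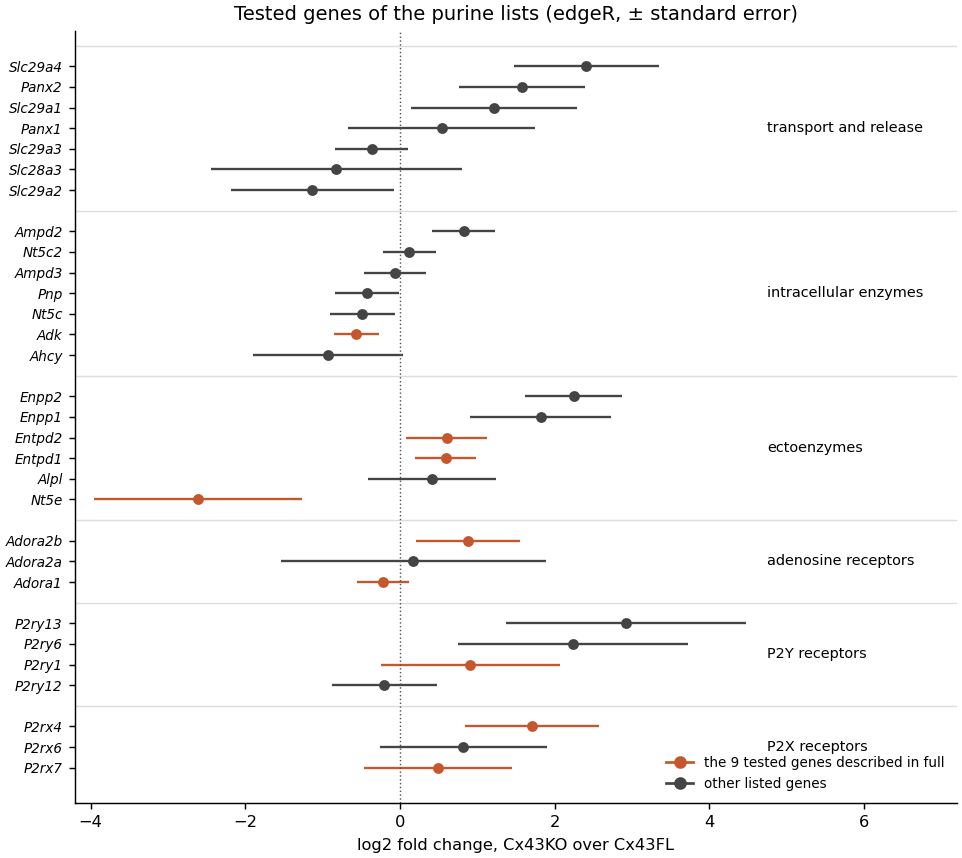
Log2 fold change (Cx43KO over Cx43FL) with its SE from edgeR for the 30 tested purine genes, in 6 groups, with the 9 genes described in full in orange. Enpp2 and Slc29a4 are the genes with an unadjusted p below 0.05, and no gene passed the adjusted threshold.

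An unadjusted p below 0.05 was given for 2 of the 30 genes, both higher in Cx43KO (5.66% of all genes). Enpp2 encodes autotaxin, a secreted enzyme of the nucleotide pyrophosphatase family that mainly makes lysophosphatidic acid. It had 967, 145 and 1263 CPM in Cx43FL and 2999.6, 2907 and 5380.3 in Cx43KO, all above. Enpp2 differed by 2.25 on the log2 scale (SE 0.63, edgeR adjusted p = 0.490), and DESeq2 with its prior called it (adjusted p = 0.027). Slc29a4, a transporter of monoamines and adenosine, had 4.61, 0.60 and 14.6 CPM in Cx43FL and 61.2, 14.4 and 29.98 in Cx43KO, with overlap (log2 difference 2.41, SE 0.93, edgeR adjusted p = 0.556). With 1 library left out it ran from 1.75 (without Cx43KO replicate 1) to 3.75 (without Cx43FL replicate 3). Both are strongly expressed in choroid plexus, whose marker Ttr stood at 9593, 450.1 and 14872 CPM in Cx43FL and at 32150, 25644 and 21438 in Cx43KO. The 10 choroid and ependymal markers together stood at 483 to 15310 CPM in Cx43FL and 22113 to 32894 in Cx43KO, and their part in these differences was not tested.

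P2ry6, the UDP receptor known for microglial phagocytosis, had 5, 0 and 9 counts in Cx43FL and 40, 27 and 27 in Cx43KO, all above, with a log2 difference of 2.24 (SE 1.49, edgeR adjusted p = 0.660), which ran from 1.63 (without Cx43KO replicate 1) to 3.10 (without Cx43FL replicate 3) with 1 library left out. P2rx3, the ATP channel of sensory neurons, had 6, 1 and 9 counts in Cx43FL and 0 in each Cx43KO library and was too low to test. P2ry12, a defining receptor of resting microglia, had 8.30, 12.1 and 6.64 CPM in Cx43FL and 7.08, 5.43 and 11.0 in Cx43KO, with full overlap (log2 difference -0.20, SE 0.68, edgeR adjusted p = 0.945). Of the 30 tested purine genes, 2 had every Cx43KO library above every Cx43FL library, Enpp2 and P2ry6, beside 8.08% of all genes. Another 2, Adk and Nt5e, had every Cx43KO library below, beside 7.45%.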

How the data were processed

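Ribosome-bound RNA of hippocampal astrocytes, recovered by TRAP, was sequenced in 3 Cx43FL and 3 Cx43KO libraries. The RNA was amplified with the NuGEN Ovation system. The authors mapped reads with STAR on mm10, discarded multi-mapping ones, assigned the rest with HTSeq-count (version 0.5.3 in the submitters' processing notes) and deposited raw counts per Ensembl transcript, not normalized. Reads that map to several transcripts or genes can therefore be lost or shared in ways these counts do not show.

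The 10 genes and all lists were chosen with earlier results of these data known. The tests had been set down for gene counts, and the files turned out to hold transcripts. Of 75466 transcripts, 73157 were matched to GENCODE vM21 (GRCm38). The 2309 unmatched ones held 1.60% to 1.78% of the counts. For the 22086 genes, the most counted transcript over the 6 libraries stood for the gene. Totals ran from 33423491 to 77030398 counts on transcripts per library. All pairs of libraries differed beyond sampling noise (chi-square per degree of freedom of 32.5 or more).

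The genotype comparison used edgeR 4.0.16 under R 4.3.3 (TMM, filterByExpr, quasi-likelihood test, genotype alone), with Benjamini-Hochberg adjustment over 13545 genes. Intervals are at 95%, from the SE and the fitted degrees of freedom. CPM are relative to the TMM-scaled total of counts on tested genes. Single genes also had an exact 2-sided permutation test on log2(CPM + 0.5). Alternatives were other size factors, count filters, DESeq2 1.42.0 with and without its prior, the replicate number as a block, transcripts added up, astrocyte-marker scaling (chosen after seeing the data) and each library left out. Replicates are the libraries of the labels, and p-values measure the spread between them. The labels give no batch. Numbers in the names of the deposited files differ in range between genotypes, and what they stand for is not given in the sources used here.

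Named genes were the 10, the other listed purine genes with an unadjusted p below 0.05 or without overlap, and the 3 genes most like each of the 3 most abundant. P2ry12 and the marker genes were named after their values were seen. Promoters were taken from RefSeq for all 10 genes.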

Additional observations from a re-analysis of the deposited data

How the results depend on the processing

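Over the 133 fits of single genes under alternatives, 130 kept the direction and 3 reversed, none passed the threshold, and the lowest adjusted p was 0.344. P2rx7 ran from -0.82 (without Cx43KO replicate 1) to 0.97 on the log2 scale over the fits that left out 1 library, and Adora1 from -0.42 to 0.12 (without Cx43FL replicate 2). Adora1 was 0.20 when scaled to astrocyte markers. The cause was not tested. Over all genes, 1 was called higher and 0 lower in Cx43KO. The count higher was 0 with at least 10 counts in every library, 0 with transcripts added up, 0 with astrocyte-marker scaling and 0 to 11 with a library left out, 11 being without Cx43KO replicate 1. DESeq2 called 113 higher and 17 lower with its prior, and 148 and 27 without. Of the listed purine genes, edgeR called 0 and DESeq2 called 1, Enpp2, both with and without the prior. With the replicate block 2 genes were called higher. Deviations of same-numbered libraries correlated at -0.05 to 0.01, and not every library correlated best with its own number, so the numbers were not taken to pair the samples. P2ry1 and Nt5e could not be tested with at least 10 counts in every library.

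Places in the Cx43FL order moved within the less abundant genes. Without division by length P2rx4 was in place 7, P2rx7 in 6, Entpd1 in 3 and Entpd2 in 4. With transcripts added up P2rx4 was in place 5, P2rx7 in 6, Adora2b in 7, Entpd1 in 3 and Entpd2 in 4. Nt5e, P2ry1 and P2ry14 had 3 or fewer counts in at least 1 library, where a count of 0 to 3 cannot be told from the floor.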

Other observations

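Transcripts of the P2X channels were counted in different proportions between libraries. Reads shared by overlapping transcripts were counted on each, so the values below are relative to the most counted transcript of the gene and are not isoform levels. The 11-exon P2rx4 transcript ENSMUST00000142664 had 44.4%, 24.1% and 44.6% of the counts of the most counted one in Cx43FL and 0%, 8.45% and 11.7% in Cx43KO, all below. Its own counts ran from 14 to 29 per Cx43FL library, and Cx43KO replicates 1 and 2 held just 0 and 6. Cx43KO replicate 3 held 102, beside 875 of the most counted transcript. Its CPM there, 3.15, was the highest of all libraries, above the 0.93 to 1.89 of Cx43FL. The low percentage of that library thus did not come from a low level of this transcript. The P2rx7 transcript ENSMUST00000031425 stood at 73.8%, 34.0% and 16.7% in Cx43FL and at 43.2%, 1.52% and 4.55% in Cx43KO, with overlap. A P2rx7 transcript of 4 exons, ENSMUST00000086247, had 62, 0 and 3 counts in Cx43FL and 0 in each Cx43KO library. These transcripts were chosen after their values were seen and were not tested between genotypes. The share of all transcripts that separate in this way is not given here. Added up over the transcripts of a gene, the log2 difference was 1.20 for P2rx4 and 0.02 for P2rx7.

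Several other purine genes, chosen after their values were seen, overlapped between genotypes. Pnp, which splits inosine and guanosine, had 142, 217 and 165 CPM in Cx43FL and 55.9, 137 and 196 in Cx43KO. The equilibrative nucleoside transporter Slc29a1 had 2.83, 1.19 and 0.59 CPM in Cx43FL and 3.04, 5.10 and 2.59 in Cx43KO, and the release channel Panx2 had 5.27, 4.71 and 5.28 against 24.1, 19.2 and 2.44. Adora3 had counts only in Cx43KO replicate 3 (49), and P2ry13 had 1, 1 and 13 counts in Cx43FL and 23, 9 and 186 in Cx43KO, again highest in replicate 3.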
